A study of Mus musculus with 6 samples.

Results

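The Hoxa cluster is a row of homeobox genes on mouse chromosome 6, and 9 of its members (Hoxa2, Hoxa3, Hoxa4, Hoxa5, Hoxa6, Hoxa7, Hoxa9, Hoxa10 and Hoxa11) were followed across adipocytes of 3 origins. The members were taken as every probe set whose platform gene symbol was a single member name. That gave 15 of the 43057 probe sets of the array, for 8 of the 9 genes. Hoxa6 had no such probe set and was not analysed here. Hoxa2, Hoxa7 and Hoxa11 were measured by 1 probe set each, Hoxa4, Hoxa5, Hoxa9 and Hoxa10 by 2 each, and Hoxa3 by 4.

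Hox genes encode transcription factors that bind DNA through a homeodomain and give cells their position along the head-to-tail axis of the embryo. Within a cluster the genes lie in the order in which they act along that axis, with low numbers at the anterior end and high numbers at the posterior end, and adult mesenchymal cells, adipocyte precursors among them, keep much of the Hox pattern of the place they came from. In the blood system Hoxa9 and Hoxa10 are best known from progenitor cells and from leukaemia, and Hoxa10 and Hoxa11 from the developing uterus and limbs.

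RNA was measured on oligonucleotide arrays, 1 array a sample, with 2 arrays in each of 3 groups. Marrow-derived adipocytes were sorted from the floating fat cell fraction of gonadal fat in mice transplanted with marrow from donors carrying green fluorescent protein (GFP, replicate 1) or beta-galactosidase (LacZ, replicate 2). White adipocytes of gonadal fat and brown adipocytes of interscapular fat (spelled intrascapular in the labels) were prepared by the same collagenase digestion and flotation, and about 5000 cells a sort were collected and at least 6 sorts pooled per sample. The labels used here give no strain, sex or age, no promoter for either donor marker and no genotype or transplant for the white and brown groups. Samples are named as biological replicates with no word on separate animals, and a p-value here therefore covers the spread of these samples alone, part of which may be technical.

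Promoter sequences are shown for an anterior gene, a central gene and the posterior pair on which the comparisons turn. The stretch of 250 bases before the annotated start was available from RefSeq (GRCm38.p6) for 8 of the 9 members, with 2 starts for Hoxa10. All of those shown lie on the minus strand of chromosome 6 and are written 5' to 3'. They are chr6:52164832-52165081 for Hoxa2, chr6:52204588-52204837 for Hoxa5, chr6:52227371-52227620 for Hoxa9, and chr6:52234940-52235189 and chr6:52240855-52241104 for the starts of Hoxa10. Capitals mark matches, on either strand, to TTTAT (a core bound by caudal and posterior Hox proteins) and TGATTNAT (a Hox and Pbx dimer motif).
Hoxa2: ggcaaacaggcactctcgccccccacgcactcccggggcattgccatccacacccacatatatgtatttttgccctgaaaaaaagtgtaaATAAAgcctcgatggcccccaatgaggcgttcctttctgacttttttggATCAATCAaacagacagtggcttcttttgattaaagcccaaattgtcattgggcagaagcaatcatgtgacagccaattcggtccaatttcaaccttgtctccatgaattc
Hoxa5: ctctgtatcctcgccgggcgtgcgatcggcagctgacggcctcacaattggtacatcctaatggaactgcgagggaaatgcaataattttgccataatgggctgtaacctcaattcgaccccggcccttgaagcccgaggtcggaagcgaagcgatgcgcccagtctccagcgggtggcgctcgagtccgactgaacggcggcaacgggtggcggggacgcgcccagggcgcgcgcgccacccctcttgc
Hoxa9: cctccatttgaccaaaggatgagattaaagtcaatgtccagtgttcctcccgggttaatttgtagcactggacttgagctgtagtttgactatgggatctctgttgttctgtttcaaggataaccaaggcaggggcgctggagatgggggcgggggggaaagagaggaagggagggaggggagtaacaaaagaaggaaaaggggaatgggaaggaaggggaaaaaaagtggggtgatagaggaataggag
Hoxa10 (nearer Hoxa9): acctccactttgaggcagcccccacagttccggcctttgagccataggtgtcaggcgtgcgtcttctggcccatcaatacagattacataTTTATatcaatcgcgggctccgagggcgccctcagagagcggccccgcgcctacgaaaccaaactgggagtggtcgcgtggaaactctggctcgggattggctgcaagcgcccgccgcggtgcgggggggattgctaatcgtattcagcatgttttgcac
Hoxa10 (nearer Hoxa11): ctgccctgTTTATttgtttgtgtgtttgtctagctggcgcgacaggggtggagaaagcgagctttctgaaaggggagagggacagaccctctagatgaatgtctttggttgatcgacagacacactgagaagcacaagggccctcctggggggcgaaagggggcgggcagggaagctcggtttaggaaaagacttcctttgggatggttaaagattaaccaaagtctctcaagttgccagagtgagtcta

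A TTTAT match stood in the Hoxa2 stretch and in both Hoxa10 stretches, and Hoxa7 (not shown) held 2. Among 32851 promoter stretches of the same length, 37.3% held that motif. TGATTNAT occurred in Hoxa2, where its letters overlap no TTTAT match, and in 2.82% of all stretches. Neither TAATTA (a general homeodomain core, in 4.84% of all) nor AGGTCA (a nuclear receptor half-site, in 14.02% of all) occurred in any of the 9 stretches. CpG dinucleotides numbered 6 in the Hoxa2 stretch, 28 in Hoxa5, 3 in Hoxa9, and 20 and 7 at the Hoxa10 starts, beside a median of 6 over all promoters. These matches are letters in a window and say nothing of what binds there.

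Levels are given on the log2 scale for each probe set, with array medians from 5.46 to 5.72 and lower quartiles from 3.41 to 3.55 and precision limited by the small number of arrays. The general adipocyte markers were high on every array, with a mean of 12.26 and 11.80 on the marrow-derived arrays, 12.84 and 12.98 on white and 12.74 and 12.76 on brown. Their median difference was -0.52 for marrow-derived minus white and -0.62 for marrow-derived minus brown. Of their 10 probe sets, 3 were called lower in marrow-derived adipocytes in each comparison and 0 higher. The shares called lower over all probe sets were 10.8% and 9.46%. Ucp1, the uncoupling protein that defines brown fat, was 13.58 and 13.53 on brown arrays. Xist, transcribed from the inactive X of female cells, was 10.87 and 10.85 on the marrow-derived arrays, against 2.99 and 3.35 on white and 3.39 and 3.36 on brown. The Y-linked Eif2s3y was 9.15 on the GFP and 5.35 on the LacZ array, against 11.43 and 10.80 on white and 11.61 and 11.19 on brown. Sex and cell type therefore cannot be told apart in any comparison that includes the marrow-derived arrays. Differences below are the first group named minus the second, on the log2 scale, ± the standard error (SE) of limma, with n = 2 arrays a group and p-values adjusted by Benjamini-Hochberg over all 43057 probe sets. A probe set is called at an adjusted p under 0.05. Unadjusted limma p-values under 0.05 were far more common. Over all 43057 probe sets, 7758 were then higher and 7469 lower in marrow-derived than in white adipocytes. The counts were 7001 higher and 7127 lower against brown, and 4594 higher and 5642 lower for white against brown. Fits without 1 array leave a group with a single array, which is assumed to vary like the arrays of the other groups.

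The posterior genes Hoxa9 and Hoxa10 were far higher on marrow-derived arrays than on white or brown arrays by 1 of the 2 probe sets of each. The other Hoxa9 probe set was higher by 1.24 against white and 1.11 against brown. The other Hoxa10 probe set gave 0.05 and -0.63 and was not called. The anterior and central genes Hoxa2 to Hoxa5 took another course against brown adipocytes, with marrow-derived minus brown differences from -1.24 to 0.87. None of their 9 probe sets was called higher in marrow-derived than in brown adipocytes, beside 7.49% of all probe sets. With 9 probe sets, that count is near the share over all. Of the 9, 5 were called lower in white than in brown, beside 4.58% of all. Against white, all 9 marrow-derived differences were positive and 3 were called higher, beside 11.5% of all. Hoxa7, between these blocks, passed no test. The plot of member values by array shows both patterns.

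**Figure D1:**
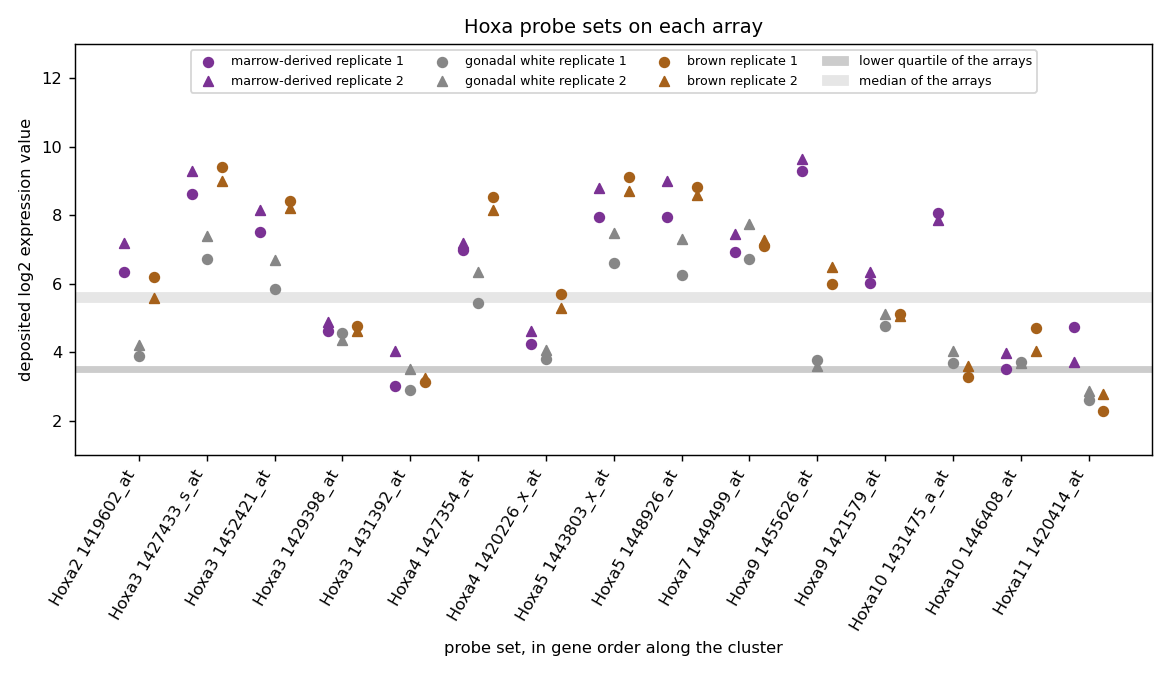
Log2 expression value of each of the 15 Hoxa probe sets on the 6 arrays, in gene order, with circles for replicate 1 and triangles for replicate 2 of marrow-derived (purple), gonadal white (grey) and brown (orange-brown) adipocytes. Grey bands span the lower quartiles and the medians of the 6 arrays. For the Hoxa9 probe set 1455626_at and the Hoxa10 probe set 1431475_a_at the marrow-derived points, at 9.28 and 9.65 and at 8.07 and 7.86, lie far above the white and brown points of the same probe set.

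Marrow-derived adipocytes set against white ones ask how cells of marrow descent differ from the resident fat cells of the same depot. Here 7 of the 15 Hoxa probe sets, from 5 genes, were higher in marrow-derived adipocytes, beside 11.5% of all probe sets. None of the 15 was lower, beside 10.8% of all, and at an unadjusted p under 0.05 the counts were 10 higher and 0 lower. Those unadjusted counts stand beside 7758 higher and 7469 lower of all 43057 probe sets. The median difference over the 15 was 1.32, and over all probe sets it was -0.04. Fewer cells of a type and less RNA per cell cannot be told apart in these bulk samples.

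Against brown adipocytes, 4 of the 15 Hoxa probe sets were higher in marrow-derived adipocytes, beside 7.49% of all probe sets. They were the probe sets of Hoxa9 (both), Hoxa10 (1 of 2) and Hoxa11. A Hoxa4 probe set was the 1 that was lower, beside 9.46% of all, so the lower side shows no more than the background. The median over the 15 was -0.00, and over all probe sets 0.02. In the comparison of white with brown adipocytes, which sets a scale for differences between adipocyte types, 6 Hoxa probe sets were lower in white, beside 4.58% of all. None was higher in white, beside 2.79% of all, and at an unadjusted p under 0.05 the counts were 8 lower and 0 higher. Those unadjusted counts stand beside 5642 lower and 4594 higher of all 43057 probe sets. The median difference there was -1.57. The marrow-derived arrays serve in both of their comparisons, and each other group likewise serves in 2, so the comparisons are not independent of each other.

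**Figure D2:**
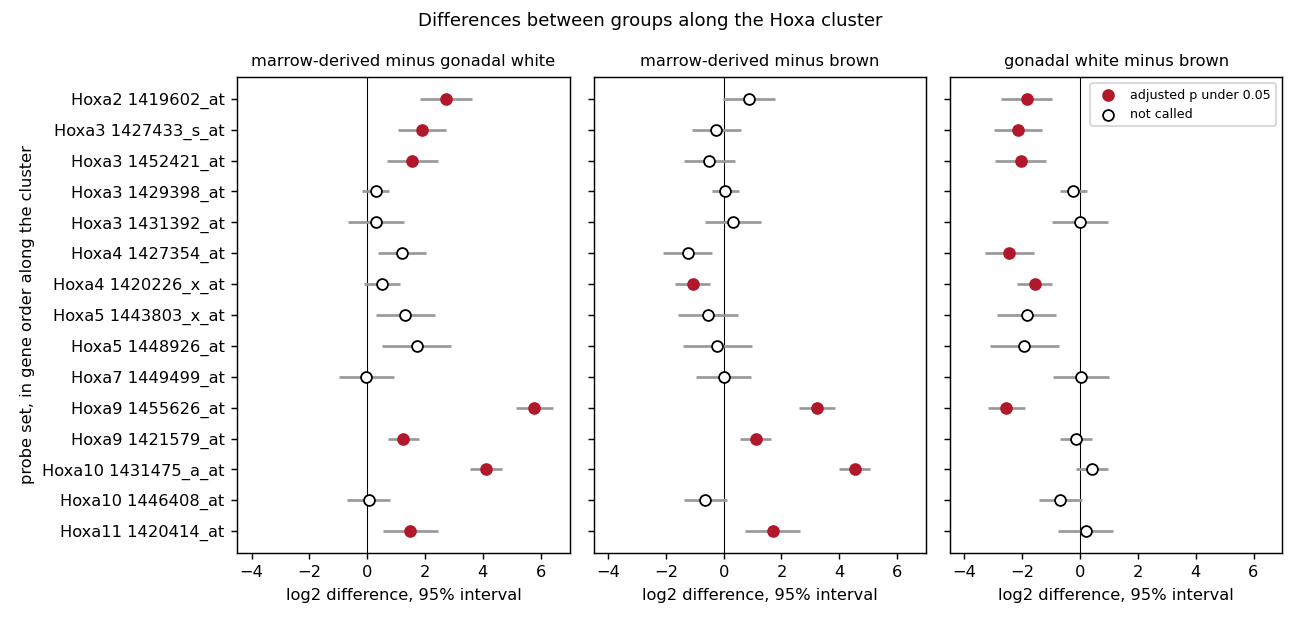
Log2 difference of each Hoxa probe set with its 95% interval from limma, in gene order from top to bottom, for marrow-derived minus gonadal white (left), marrow-derived minus brown (middle) and gonadal white minus brown (right). Filled red points have an adjusted p under 0.05 and open points do not. In the middle panel the called positive differences are those of Hoxa9, Hoxa10 and Hoxa11, from 1.11 to 4.53, and in the right panel 5 of the 6 called probe sets belong to Hoxa2, Hoxa3 and Hoxa4.

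Hoxa2, the most anterior member, patterns the hindbrain and the neck arches of the embryo. Its probe set 1419602_at had log2 values of 6.34 and 7.18 on marrow-derived arrays, 3.89 and 4.21 on white and 6.21 and 5.59 on brown. Marrow-derived and brown arrays all stood above both white arrays, and the brown arrays lay just below the marrow-derived ones. Hoxa2 was 6.57-fold higher in marrow-derived than in white adipocytes (2.72 ± 0.36, limma adjusted p = 0.00734). Against brown adipocytes it did not pass the test (0.87 ± 0.36, 95% interval -0.03 to 1.76, limma adjusted p = 0.164). White adipocytes had 3.61-fold less than brown (-1.85 ± 0.36, limma adjusted p = 0.0415), a call that was lost when any 1 of the 4 white and brown arrays was left out.

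Hoxa3 acts in the formation of the thymus, the parathyroids and the neck vessels. Its brightest probe set, 1427433_s_at, read 8.62 and 9.28 on marrow-derived arrays, 6.73 and 7.38 on white and 9.40 and 9.01 on brown. A second, 1452421_at, read 7.50 and 8.14 on marrow-derived arrays, 5.84 and 6.68 on white and 8.42 and 8.21 on brown. In both, the white arrays lay below all others, while marrow-derived and brown arrays overlapped or nearly met. The first was 3.71-fold higher in marrow-derived than in white adipocytes (1.89 ± 0.34, limma adjusted p = 0.0158) and the second 2.95-fold (1.56 ± 0.36, limma adjusted p = 0.0318). Without white replicate 1 neither call was kept, and the second was also lost without the LacZ array or either brown array. White against brown gave -2.15 ± 0.34 (limma adjusted p = 0.0249) and -2.05 ± 0.36 (limma adjusted p = 0.0316), and neither call was kept when any white or brown array was left out. Marrow-derived minus brown was -0.26 and -0.49, with 95% intervals of -1.10 to 0.59 and -1.38 to 0.40. The other Hoxa3 probe sets, 1429398_at and 1431392_at, ran from 4.36 to 4.88 and from 2.90 to 4.02 over the 6 arrays, below every array median, and passed no test. Probes of an _s_at set may be shared with other transcripts.

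Hoxa4 showed the clearest order of the 3 groups among the anterior genes, with brown highest and white lowest. Its probe set 1427354_at gave 6.99 and 7.18 on marrow-derived arrays, 5.44 and 6.34 on white and 8.52 and 8.15 on brown, with no overlap between groups. The differences of marrow-derived adipocytes narrowly missed the test on both sides, at 1.20 ± 0.34 against white (limma adjusted p = 0.0561) and -1.24 ± 0.34 against brown (limma adjusted p = 0.0598). White adipocytes had 5.44-fold less than brown (-2.44 ± 0.34, limma adjusted p = 0.0182), although not without either brown array. The dimmer 1420226_x_at kept the same order, with 4.25 and 4.63 on marrow-derived arrays, 3.79 and 4.07 on white and 5.71 and 5.29 on brown. It was 2.09-fold lower in marrow-derived than in brown adipocytes (-1.06 ± 0.24, limma adjusted p = 0.0393), a call kept without the LacZ array and in none of the other 5 fits that leave out an array. For white minus brown it was -1.57 ± 0.24 (limma adjusted p = 0.0239), which was lost without any 1 white or brown array. Probes of an _x_at set may bind other transcripts as well.

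Hoxa5, a regulator of lung and skeletal patterning, gave near-equal results with both probe sets. Probe set 1448926_at had 7.95 and 9.01 on marrow-derived arrays, 6.24 and 7.29 on white and 8.82 and 8.58 on brown. For 1443803_x_at the values were 7.95 and 8.80 on marrow-derived arrays, 6.61 and 7.49 on white and 9.10 and 8.70 on brown. White arrays were again the lowest, and the GFP array lay closer to white replicate 2 than to the LacZ array. In the fit of all 6 arrays neither probe set was called in any comparison. Marrow-derived minus white was 1.71 ± 0.48 (95% interval 0.53 to 2.90, limma adjusted p = 0.0549) and 1.32 ± 0.42 (limma adjusted p = 0.0766). White minus brown was -1.93 ± 0.48 (limma adjusted p = 0.0752) and -1.85 ± 0.42 (limma adjusted p = 0.0593). Marrow-derived minus brown was -0.22 and -0.53, with 95% intervals of -1.40 to 0.97 and -1.56 to 0.50. For 1448926_at and 1443803_x_at in turn, marrow-derived minus white was 2.24 and 1.74 without the GFP array. Without the LacZ array it was 1.18 and 0.89. Fits of only the 2 groups compared called both probe sets for white minus brown (limma adjusted p = 0.0358 and 0.0323). Such fits called neither against white (limma adjusted p = 0.12 and 0.142).

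Hoxa7, at the centre of the cluster, passed no test. Probe set 1449499_at had 6.92 and 7.46 on marrow-derived arrays, 6.71 and 7.74 on white and 7.10 and 7.28 on brown. The white pair spanned the values of all other arrays. Its differences were -0.03, -0.00 and 0.03, each with an SE of 0.38. The interval of marrow-derived minus white ran from -0.99 to 0.92, so a difference within that range, in either direction, was not excluded. The size of difference needed for a call was not tested.

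Hoxa9, the first of the posterior genes and a driver of blood progenitor expansion, differed between all 3 groups by its brighter probe set. Probe set 1455626_at had 9.28 and 9.65 on marrow-derived arrays, 3.78 and 3.59 on white and 5.98 and 6.49 on brown. The groups did not overlap, and the white values lay near the lower quartile of the arrays, where a fold can be understated. Hoxa9 was 54.9-fold higher in marrow-derived than in white adipocytes (5.78 ± 0.25, limma adjusted p = 0.00267) and 9.38-fold higher than in brown (3.23 ± 0.25, limma adjusted p = 0.00287). Both calls were kept whichever array was left out. White adipocytes had 5.85-fold less than brown (-2.55 ± 0.25, limma adjusted p = 0.00995), which was lost without white replicate 2 or either brown array.

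The second Hoxa9 probe set, 1421579_at, moved the same way against both groups but by less. It read 6.03 and 6.34 on marrow-derived arrays, 4.76 and 5.13 on white and 5.11 and 5.05 on brown. Marrow-derived arrays were the highest, and white and brown arrays overlapped. The difference was 1.24 ± 0.22 against white (limma adjusted p = 0.0146) and 1.11 ± 0.22 against brown (limma adjusted p = 0.026). The first was lost without white replicate 1 and the second without the LacZ array or either brown array. The probe sets disagree on white against brown, where this one gave -0.14 ± 0.22 (limma adjusted p = 0.756).

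Hoxa10, which patterns the uterus and the lumbar region, separated marrow-derived adipocytes from both other groups. Probe set 1431475_a_at had 8.07 and 7.86 on marrow-derived arrays, 3.70 and 4.02 on white and 3.27 and 3.60 on brown. Both marrow-derived arrays stood above all 4 others, whose values lay near the lower quartiles. Hoxa10 was 17.2-fold higher in marrow-derived than in white adipocytes (4.10 ± 0.22, limma adjusted p = 0.00286) and 23.1-fold higher than in brown (4.53 ± 0.22, limma adjusted p = 0.00128). With values under 4 raised to 4 the differences were 3.95 and 3.96, so the unequal folds against white and brown rest on values near background. Leaving out any 1 array ended neither call. White and brown did not differ past the threshold (0.42 ± 0.22, 95% interval -0.12 to 0.97, limma adjusted p = 0.32). The other probe set, 1446408_at, disagrees: it had 3.50 and 3.99 on marrow-derived arrays, 3.71 and 3.69 on white and 4.71 and 4.04 on brown, below every array median, and passed no test.

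Hoxa11, a partner of Hoxa10 in uterus and limb, was dim. Its probe set 1420414_at had 4.74 on the GFP and 3.72 on the LacZ array, against 2.60 and 2.88 on white and 2.29 and 2.78 on brown. Both marrow-derived arrays stood above all others. It was 2.82-fold higher than in white adipocytes (1.50 ± 0.38, limma adjusted p = 0.0432) and 3.24-fold higher than in brown (1.69 ± 0.38, limma adjusted p = 0.0376). White and brown values lay below the lower quartiles, so these folds are not well measured: with values under 4 raised to 4, both differences were 0.37 (limma adjusted p = 0.527 and 0.549). Each of these calls was kept only without the LacZ array among the fits that leave out an array, and without the GFP array the differences were 0.98 (limma adjusted p = 0.0732) and 1.18 (limma adjusted p = 0.0556).

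Set in gene order, the blocks differ against brown adipocytes. Marrow-derived minus brown was positive for 4 of the 5 probe sets of Hoxa9 to Hoxa11. It took both signs in Hoxa2 to Hoxa5, with 3 of 9 positive. These blocks were drawn after the values were seen, so they describe the members and test nothing. For the 9 probe sets of Hoxa2 to Hoxa5, marrow-derived minus brown ran from -1.24 to 0.87 with a median of -0.26. For the 5 probe sets of Hoxa9 to Hoxa11 it ran from -0.63 to 4.53 with a median of 1.69. Against white adipocytes the medians of the blocks were closer, at 1.32 for Hoxa2 to Hoxa5 and 1.50 for Hoxa9 to Hoxa11. The medians of 1.69 and 1.50 are the differences of the dim Hoxa11 probe set, which are not well measured. With values under 4 raised to 4, both of these Hoxa11 differences were 0.37. White minus brown had a median of -1.85 in the first block and -0.14 in the second. Over the 8 genes, with the probe set of highest mean level for each, Spearman's rho of the difference with gene order was 0.14 for marrow-derived minus white, 0.62 for marrow-derived minus brown and 0.52 for white minus brown. Neighbouring genes share arrays and may share transcripts, so these are descriptions.

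Most members also moved the same way within each replicate pair. The LacZ array was higher than the GFP array in 13 of the 15 probe sets, with a median gap of 0.49. White replicate 2 was higher than white replicate 1 in 12 of 15, with a median of 0.37, and brown replicate 2 was lower than brown replicate 1 in 10 of 15, with a median of -0.21. Over all probe sets the medians of these gaps were 0.08, 0.07 and 0.02. Of all 43057 probe sets, 24822 were higher on the LacZ array and 25397 on white replicate 2. On brown replicate 2, 20546 were lower. Several of the 15 probe sets share a gene, so these counts are descriptions. Hoxa10 1431475_a_at and Hoxa11 were the members that were lower on the LacZ array.

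Other transcripts of the cluster were looked up by position after the member values were known. Hoxa11os, the antisense transcript of Hoxa11, had 4.11 and 4.28 on marrow-derived arrays for probe set 1452400_a_at, against 2.35 and 2.21 on white and 2.30 and 2.41 on brown. It was 3.79-fold higher than in white (1.92 ± 0.18, limma adjusted p = 0.00365) and 3.59-fold higher than in brown adipocytes (1.84 ± 0.18, limma adjusted p = 0.00429). The white and brown values lay below the lower quartiles of the arrays, and with values under 4 raised to 4 both differences were 0.20, so the size of the fold is not well measured. Its second probe set, 1457646_at, ran from 1.99 to 2.46 and was not called. Gm15050, a transcript model within the cluster, had 6.28 and 6.58 on marrow-derived arrays, 6.80 and 8.04 on white and 8.53 and 9.05 on brown. It was 5.13-fold lower in marrow-derived than in brown adipocytes (-2.36 ± 0.44, limma adjusted p = 0.0226), and against white it did not pass the test (-0.99 ± 0.44, limma adjusted p = 0.177). Hoxa13, the last gene of the cluster, ran from 3.09 to 3.88 over the 6 arrays and passed no test.

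On either side of the cluster no gene was called higher in marrow-derived adipocytes. Of 13 probe sets for 6 neighbours, limma called 0 higher and 4 lower than in white (1 and 4 at an unadjusted p under 0.05). Against brown it called 0 higher and 3 lower (0 and 4 unadjusted). The shares over all probe sets were 11.5% higher and 10.8% lower than in white, and 7.49% and 9.46% than in brown. With 13 probe sets, 0 higher is near those shares. The median difference of the neighbours was -0.21 against white and -0.30 against brown. Hibadh, a mitochondrial enzyme of valine breakdown, was lower in marrow-derived adipocytes by -1.47 ± 0.25 against white (limma adjusted p = 0.0135) and -2.05 ± 0.25 against brown (limma adjusted p = 0.00769). Snx10, an endosomal sorting protein, differed by -1.10 and -1.52, and Jazf1, a transcriptional cofactor, by -1.42 against white. Skap2 and Evx1, which flank the cluster directly, were not called, and Skap2 ran from 10.16 to 10.74 over all arrays.

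The remaining Hox genes were read from a list of 30, of which 25 were measured by 33 probe sets. In marrow-derived against white adipocytes 9 of these probe sets were higher and 7 lower, and against brown adipocytes 6 were higher and 4 lower. The shares over all probe sets were 11.5% higher and 10.8% lower against white, and 7.49% and 9.46% against brown. Those of paralog groups 9 to 13 counted 4 higher and 0 lower of 12 against white, and 3 higher and 0 lower against brown. With 12 probe sets, a count of 0 lower is near those shares. For groups 1 to 8 the counts were 5 higher and 7 lower of 21 against white, and 3 higher and 4 lower against brown. All 7 lower probe sets against white belonged to the Hoxc cluster. The median difference over the 33 was 0.06 against white and 0.10 against brown, near the medians of -0.04 and 0.02 over all probe sets.

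The paralogs of Hoxa10 were higher in marrow-derived adipocytes as well. Hoxd10 had 8.15 and 8.97 on marrow-derived arrays, 2.42 and 2.38 on white and 3.37 and 3.71 on brown, which made 6.16 ± 0.31 against white (limma adjusted p = 0.00286) and 5.02 ± 0.31 against brown (limma adjusted p = 0.00186). Hoxc10 had 7.79 and 6.90 on marrow-derived arrays, 3.18 and 3.62 on white and 3.28 and 2.90 on brown, with differences of 3.94 ± 0.35 (limma adjusted p = 0.00353) and 4.26 ± 0.35 (limma adjusted p = 0.00331). Most of the white and brown values of both lay below the lower quartiles, and with values under 4 raised to 4 the differences against either group were 4.56 for Hoxd10 and 3.35 for Hoxc10. Hoxd9, a paralog of Hoxa9, rose by 2.01 ± 0.19 against brown (limma adjusted p = 0.0043). In the other direction Hoxc8 fell to 8.53 and 8.19 on marrow-derived arrays, against 11.62 and 11.92 on white (-3.41 ± 0.22, limma adjusted p = 0.00293), and Hoxc5 to 6.20 and 6.36, against 9.32 and 10.04 on white (-3.40 ± 0.27, limma adjusted p = 0.00321). Hoxc5 and Hoxc4 were also lower than in brown, by -2.95 and -1.72.

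**Figure D3:**
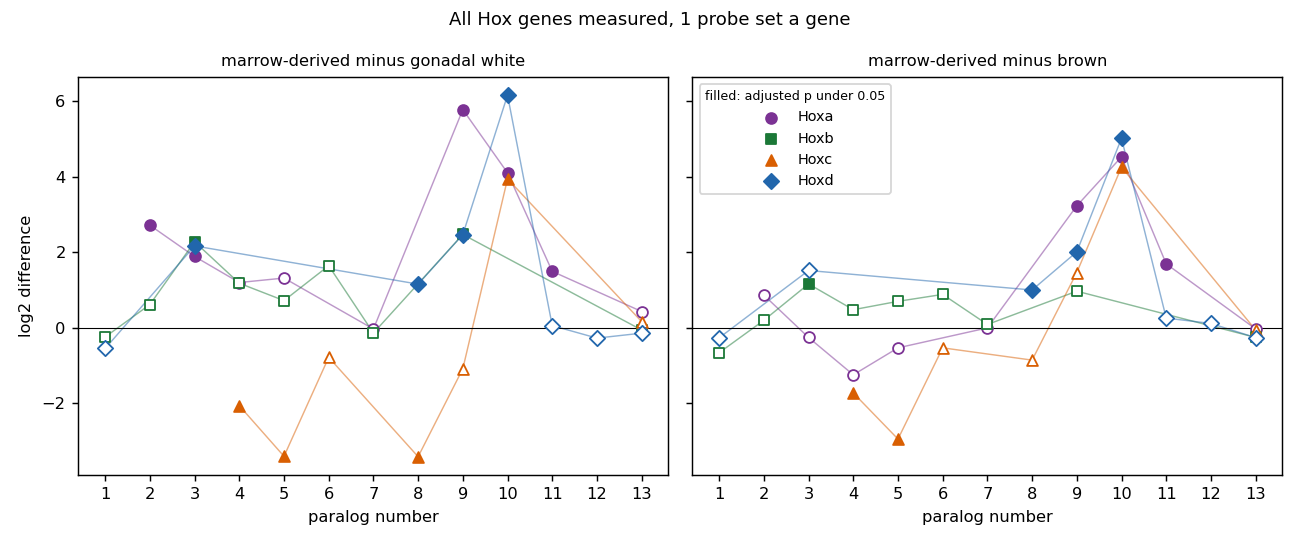
Log2 difference of every measured Hox gene, 1 probe set a gene, by paralog number, for marrow-derived minus gonadal white (left) and marrow-derived minus brown (right). Purple circles are Hoxa, green squares Hoxb, orange triangles Hoxc and blue diamonds Hoxd, filled where the adjusted p is under 0.05, with thin lines joining genes of a cluster. At paralog number 10 the measured genes Hoxa10, Hoxc10 and Hoxd10 lie between 3.94 and 6.16 on the left and between 4.26 and 5.02 on the right, while Hoxc4, Hoxc5 and Hoxc8 lie below -2 on the left.

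Hox proteins bind DNA with partners of the TALE homeodomain class. Of 20 probe sets for 8 such genes, 4 were higher and 1 lower in marrow-derived than in white adipocytes, beside 11.5% and 10.8% of all probe sets. Pbx3 (1.64 ± 0.32, limma adjusted p = 0.0205) and Pbx2 (1.06 ± 0.21, limma adjusted p = 0.0213) were higher, and Meis3 (-1.17 ± 0.22, limma adjusted p = 0.0177) was lower. Against brown adipocytes 2 of the 20 were higher and 0 lower, beside 7.49% and 9.46% of all, and 7 and 2 had an unadjusted p under 0.05 in limma. The median over the list was 0.15 and 0.28, beside -0.04 and 0.02 over all probe sets.

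Polycomb and trithorax proteins hold Hox clusters in a silent or an active state. Of 73 probe sets for 29 such genes, 17 were higher and 1 lower in marrow-derived than in white adipocytes, and 13 higher and 1 lower than in brown. Over all probe sets 11.5% were higher and 10.8% lower than in white, and 7.49% higher and 9.46% lower than in brown. The medians over the list were 0.49 and 0.25. Kmt2a, a histone methyltransferase that keeps Hoxa genes active, differed by 1.55 ± 0.21 against white (limma adjusted p = 0.00804) and 1.20 ± 0.21 against brown (limma adjusted p = 0.0202). Kdm6a, a demethylase that removes the Polycomb mark, was 1.54 ± 0.18 against white (limma adjusted p = 0.00566) and 1.44 ± 0.18 against brown (limma adjusted p = 0.00838). Psip1, a chromatin partner of Kmt2a, was 1.51 and 0.98, and Cbx8, a reader of the Polycomb mark, fell by 1.07 against brown. Kdm6a lies on the X chromosome and escapes X inactivation in mouse, and Xist moved with it.

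Retinoic acid and caudal factors act upstream of Hox clusters in the embryo. Of 14 probe sets for 11 such genes, 2 were higher and 1 lower in marrow-derived than in white adipocytes, and 1 higher and 0 lower than in brown (3 and 0 at an unadjusted p under 0.05 in limma), with medians of 0.38 and 0.34. These counts are near the shares over all probe sets, 11.5% and 10.8% against white and 7.49% and 9.46% against brown. Cyp26b1, which breaks down retinoic acid, had 9.52 and 10.87 on marrow-derived arrays, 5.72 and 4.69 on white and 9.17 and 7.90 on brown. Its difference was 4.99 ± 0.65 against white (limma adjusted p = 0.00708). Aldh1a1, which makes retinoic acid, was -2.94 ± 0.28 against white (limma adjusted p = 0.00388). Cdx2, the caudal gene measured, ran from 3.54 to 3.98 and was not called.

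Over the 6 arrays the member profiles resembled different genes. The likeness is Pearson's r of log2 values among 2792 genes, given as a description because the arrays fall into 3 groups. Hoxa5 was most like Hoxa3 (0.975), Tlcd3b (0.966), Tubb1 (0.95) and Hoxa4 (0.943). Hoxa9 was most like Ifit1 (0.998), Slfn5 (0.998), Mtcl1 (0.995) and Upp1 (0.995), while its r with Hoxa10 was 0.853. Hoxa10 was most like Kcne4 (0.994), Xist (0.992), Pcdhb19 (0.992) and Gcgr (0.992), and its r with Hoxa5 was 0.14.

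Marker genes of other cells moved with some of these results. All 20 probe sets of 12 endothelial genes were higher in marrow-derived than in white adipocytes, beside 11.5% of all probe sets. In white, 18 of 20 were lower than in brown, beside 4.58% of all. In marrow-derived against brown, 0 of 20 passed limma's test, beside 7.49% higher and 9.46% lower of all. There, 5 had an unadjusted p under 0.05. The mean of the list was 11.74 and 12.26 on marrow-derived arrays, 8.70 and 7.61 on white and 11.35 and 10.93 on brown. White arrays were also the lowest for Hoxa2, Hoxa4, Hoxa5, the brighter Hoxa3 probe sets and Hoxa9 1455626_at, and the part of endothelial RNA in their differences was not tested. Within the replicate pairs, Hoxa2, Hoxa4, Hoxa5 and the brighter Hoxa3 probe sets moved with the endothelial mean in marrow-derived adipocytes (both higher on the LacZ array) and in brown adipocytes (both lower on replicate 2). In white adipocytes they moved the other way, with replicate 2 lower in the endothelial mean and higher in these probe sets. Hoxa9 1455626_at had the endothelial order of groups, highest in marrow-derived and lowest in white adipocytes, and it too was lower on white replicate 2, while brown replicate 2 was higher. Hoxa10 was at 3.27 and 3.60 on the brown arrays, where the endothelial mean was 11.35 and 10.93. The part of endothelial RNA in the Hoxa10 differences was not tested either. The gaps within replicate pairs each compare single arrays and are given as descriptions.

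Marker lists of smooth muscle and pericytes and of fibroblasts and fat progenitors stood highest on marrow-derived arrays, as Hoxa9 and Hoxa10 did. Smooth muscle markers averaged 9.25 and 9.89 on marrow-derived arrays, 8.09 and 8.12 on white and 8.20 and 8.07 on brown, with 7 of 15 probe sets higher and 1 lower than in white, and 3 higher than in brown. Fibroblast markers averaged 9.77 and 9.54 on marrow-derived arrays, 9.18 and 8.06 on white and 7.31 and 6.64 on brown, with 3 of 19 probe sets higher than in white and 8 higher than in brown. Over all probe sets, 11.5% were higher and 10.8% lower than in white, and 7.49% were higher than in brown. The fibroblast count of 3 of 19 against white is near that first share. The part of these cell types in the Hoxa differences was not tested.

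Leukocyte and macrophage markers averaged 11.15 on the GFP and 8.54 on the LacZ array, against 11.20 and 9.68 on white and 8.62 and 7.98 on brown. In any comparison limma called 0 of their 14 probe sets, beside 2.79% to 11.5% of all by comparison and direction. At an unadjusted p under 0.05 the count was 0 against white and 1 against brown for the marrow-derived arrays, and 5 for white against brown. On the same pair of arrays Hoxa9 1455626_at read 9.28 and 9.65 and Hoxa10 1431475_a_at 8.07 and 7.86. Markers of blood progenitors averaged 7.59 and 7.42 on marrow-derived arrays, 6.27 and 5.46 on white and 6.91 and 6.72 on brown. Of their 12 probe sets, 5 were higher than in white, beside 11.5% of all, and 0 than in brown, beside 7.49%. At an unadjusted p under 0.05 in limma, 2 were higher than in brown. Epithelial markers of uterus, oviduct and epididymis stayed low, at 4.22 and 4.09 on marrow-derived arrays, 4.45 and 4.56 on white and 3.56 and 3.65 on brown. Mesothelial markers averaged 8.30 and 6.27 on marrow-derived arrays, 7.56 and 7.46 on white and 3.85 and 4.15 on brown.

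**Figure D4:**
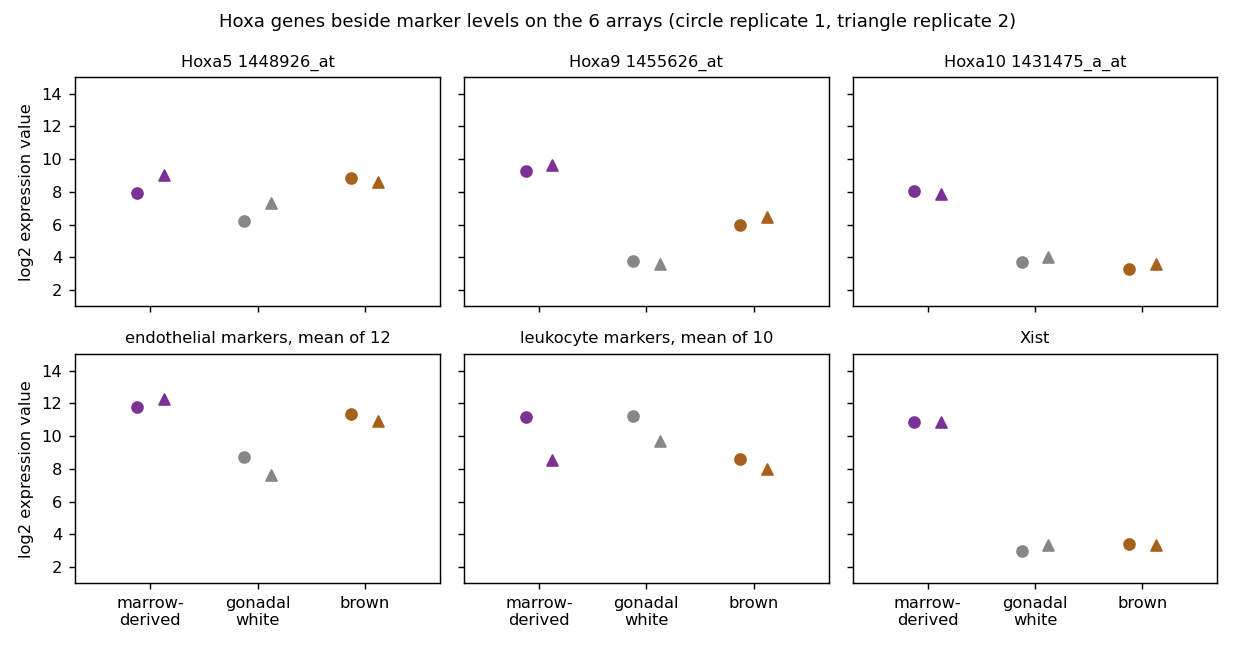
Log2 expression value on each array of Hoxa5, Hoxa9 and Hoxa10 (top row) and of the mean of 12 endothelial markers, the mean of 10 leukocyte markers and Xist (bottom row), for marrow-derived, gonadal white and brown adipocytes from left to right. Circles are replicate 1 and triangles replicate 2. Xist and Hoxa10 are high on the marrow-derived arrays alone, the endothelial mean is lowest on white arrays (8.70 and 7.61), and the leukocyte mean differs between the GFP (11.15) and LacZ (8.54) arrays.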

How the data were processed

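Values were used as deposited: log2 expression values per probe set, 1 column for each of 6 mouse adipocyte arrays, with no pooled columns. Partek and RMA are named in the submitters' processing notes, without version or role. RMA subtracts background, equalizes the arrays and summarizes probes, so large one-way shifts shrink, and it gives no detection calls. The log base was taken from the values. RNA was amplified before labelling, per the labels' protocols, which adds spread between samples. Gene symbols came from GEO's platform annotation, and all 15 Hoxa probe sets matched the RefSeq table (GRCm38.p6) by symbol. A group mean was fitted per probe set over all arrays with limma 3.58.1 in R 4.3.3, with contrasts and empirical Bayes moderation (degrees of freedom 3 residual plus 2.65 prior). All tests had both sides, and adjusted p-values, by Benjamini-Hochberg over 43057 probe sets, were held to 0.05. The fit was tested on simulated data. The members and all gene lists were chosen with earlier results of these data known. Every Hoxa probe set is reported. Of other lists, at most 4 called genes a comparison with the largest difference are named, through the probe set of highest mean, and likeness compared genes with an SD of at least 1. A total of 14 alternatives was run.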

Additional observations from a re-analysis of the deposited data

How the results depend on the processing

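The counts of Hoxa probe sets past the threshold depended on the setting more than their directions did. The number called over all probe sets changed with the setting as well, so the changes are not particular to Hoxa genes. Without moderation the counts were 0 higher for marrow-derived against white, 2 higher and 0 lower against brown, and 0 lower for white against brown. At that setting limma called 61 probe sets higher and 65 lower in all for marrow-derived against white. There, 6 Hoxa probe sets were higher at an unadjusted p under 0.05, beside 6325 of all 43057. Against brown 367 were called higher and 910 lower in all, and for white against brown 2 were lower. With values below 4 raised to 4 the counts were 4 higher, 2 higher, 0 lower and 0 lower in the same order, and a probe set wholly at that floor gives no value. In that order 2579, 1370, 2178 and 528 of all 43057 were called. Keeping probe sets above the median left 7 Hoxa probe sets and a white minus brown median of -2.05. Of the 7, 1 was higher against brown, beside 2863 of all 21528 kept. With 1 probe set a gene, 0 were lower against brown, beside 2068 of 17720 genes, and the median was 0.43. Leaving out 1 array gave 3 to 8 higher against white, 2 to 3 higher and 0 to 1 lower against brown, and 0 to 8 lower for white against brown, where 0 of all 43057 probe sets were called without either brown array. The lowest count against white came without white replicate 1.

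Centring each array on its median moved the median of all probe sets to -0.21 for marrow-derived minus white and -0.18 for marrow-derived minus brown. The share of calls that were higher became 41.0%, from 51.6%, and 29.4%, from 44.2%. Hoxa counts became 6 higher against white, and 3 higher and 2 lower against brown. Over all 43057 probe sets the counts were 3889, 2095 and 5035 in that order. Centring turned the sign of Hoxa10 1446408_at against white (-0.12), Hoxa3 1429398_at against brown (-0.14) and Hoxa3 1431392_at in white minus brown (-0.015), none of them called.

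Leaving out 1 array also turned the sign of differences that were not called. Against white they ranged from -0.20 to 0.82 for Hoxa3 1431392_at, -0.20 to 0.29 for Hoxa10 1446408_at and -0.55 to 0.48 for Hoxa7. Against brown they ranged from -0.59 to 0.075 for Hoxa3 1427433_s_at, -0.065 to 0.18 for Hoxa3 1429398_at, -0.19 to 0.83 for Hoxa3 1431392_at, -0.75 to 0.31 for Hoxa5 1448926_at and -0.27 to 0.27 for Hoxa7. White minus brown ranged from -0.044 to 0.44 for Hoxa11, -0.32 to 0.046 for Hoxa9 1421579_at, -0.29 to 0.31 for Hoxa3 1431392_at and -0.49 to 0.54 for Hoxa7. No called difference changed sign under any of the 14 alternatives. Hoxa9 1455626_at and Hoxa10 1431475_a_at kept their calls against brown under all 14 and 13 alternatives that gave a value, with adjusted p from 0.00147 to 0.0477 and from 0.000415 to 0.0379. Against white both were lost only without moderation (adjusted p = 0.0502 and 0.051).

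The labels number the replicates 1 and 2 in each group, but deviations of same-numbered arrays correlated at only 0.15, 0.02 and 0.21, and nothing says that a number marks a shared animal or day. With the replicate block the counts were 7 higher against white, 3 higher and 0 lower against brown, and 5 lower for white against brown. Over all 43057 probe sets they were 4387, 2701, 3556 and 1365 in that order. The cause of the changes was not tested, except that fewer arrays or probe sets enter some settings by construction. Probe sets below the lower quartile, such as Hoxa11 on white and brown arrays, give differences that are limited by signal over background.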
